A study of Mus musculus with 4 samples.

Results

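The genes described here are those of the matrix metalloproteinases (Mmp), the Adamts enzymes with the related Adamts-like proteins (Adamtsl), and the tissue inhibitors of metalloproteinases (Timp). They were taken by symbol from the gene column of the authors' deposited peak annotations, from peaks typed as promoter or distal on the autosomes (1 to 19), X and Y. The rule found 46 genes, namely 18 Mmp, 19 Adamts, 5 Adamtsl and 4 Timp genes, among 25458 genes with a peak in at least 1 library. Of 51 mouse RefSeq genes whose symbols match the rule, 5 had no peak in either library: Mmp1a, Mmp1b, Mmp3, Mmp10 and Mmp16. The series profiled nuclei of frozen mouse livers after bile duct ligation, with 1 library from Mertk knockout mice and 1 from wild-type mice for each assay of the 10x Multiome method (open chromatin by ATAC, and RNA). Both genotypes had the ligation, which blocks bile flow and leads to liver fibrosis, and no unligated liver is compared here. Mertk encodes a receptor tyrosine kinase with which macrophages take up dying cells. The labels do not give the deleted part of Mertk, the cells that lack it, the number of animals pooled in a library, their sex, or the time after ligation.

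Matrix metalloproteinases are zinc-dependent enzymes, secreted or anchored in the membrane, that are made as inactive precursors and cut collagens, elastin, gelatin and many other proteins outside the cell. Adamts enzymes carry a related catalytic domain joined to thrombospondin repeats. They process procollagens, trim proteoglycans such as aggrecan and versican, and cut von Willebrand factor. Adamts-like proteins have the repeats but no protease. Timps bind the active site of these enzymes. In fibrotic liver, stellate cells and fibroblasts lay down matrix and produce Timps and several of these proteases, while neutrophils and macrophages bring others.

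Only peak positions were used for gene-level values, so the measure is the number of called peaks and the accessible length of a gene, which is the summed length of its promoter and distal peaks. The knockout library held 5339 called nuclei, 83996145 ATAC fragments and 106319 peaks over 91.3 Mb, against 5828 nuclei, 40858512 fragments and 72302 peaks over 61.8 Mb in the wild-type library. Called peaks averaged 859 and 855 bp in width in the knockout and the wild-type library, and held 46.0% and 33.7% of the fragments of called nuclei. Of the called nuclei, 44 barcodes occurred in both libraries. The libraries thus differed in depth and in how much was called, and each gene's log2 ratio of accessible length (knockout over wild type, 1 kb added to both) was centred on the median of all genes with at least 2 kb on average, a shift of 0.39. Genes at or beyond 1 or -1 were called higher or lower, which sorts genes by size and tests nothing, since no genotype had a replicate. More nuclei of a type and more open chromatin per nucleus cannot be told apart in these sums. Mertk itself had 13 knockout and 10 wild-type peaks with a promoter peak in both libraries, and peaks do not show a deletion, so this checks no label.

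Markers of the cell types of liver and blood differed between the libraries. The 10 listed hepatocyte genes held 96 peaks in the knockout library and 17 in the wild-type library, and 5 of them, among them Alb (albumin), had no wild-type peak, although the tissue is labelled liver in both. Stellate cell and fibroblast markers held 82 and 20 peaks, neutrophil markers 36 and 38, and monocyte and macrophage markers 79 and 90, in the knockout and the wild-type library. Their part in the results below was not tested.

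The family as a whole had more called peaks in the knockout library, the library with more fragments and more peaks in all. Over all peaks that library had 1.47 times as many as the wild-type library, and 2.06 times the fragments in called nuclei. The members of the family were assigned 302 peaks over 263 kb in the knockout library, against 146 peaks over 126 kb in the wild-type library, before any centring. More peaks in the knockout library were found for 40 of 46 members (87.0%, against 60.3% of all genes with a peak), fewer for Mmp9 and Mmp13 alone (4.35%, against 16.2% of all genes), and equal numbers for 4. With 8 members, peaks were called in the knockout library alone (17.4%, against 13% of all genes): Mmp7, Mmp14, Mmp21, Adamts5, Adamts15, Adamts18, Adamts19 and Adamtsl3. Mmp13 had peaks in the wild-type library alone (2.17%, against 2.14% of all genes), which is the share over all genes.

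Of the 46 members, 32 reached the minimum of 2 kb. Some reached it through the knockout library, such as Adamts15 with no wild-type peak, so the following counts describe these members and not the family. Their median log2 ratio was 0.28, with quartiles of 0.05 and 0.75, against quartiles of -0.38 and 0.45 over the 14692 genes measured, whose median is 0 by centring. Above the median gene lay 24 of 32 members, against 50% of genes by construction. Adamts2, Adamts15, Adamts17 and Adamtsl1 were higher by the size rule (12.5%, against 10.3% of all genes measured), and 0 members were lower (against 4.08%). The share past the size rule was near that of all genes. Without centring, every ratio is higher by 0.39, so that Mmp9 alone among the 32 lies below 0. With no minimum, all 46 members had a median of 0.47, with 6 higher and 1 lower, where genes listed at 0 in 1 library take their ratio from the added 1 kb, beside 11.3% of all genes higher and 5.24% lower.

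**Figure D1:**
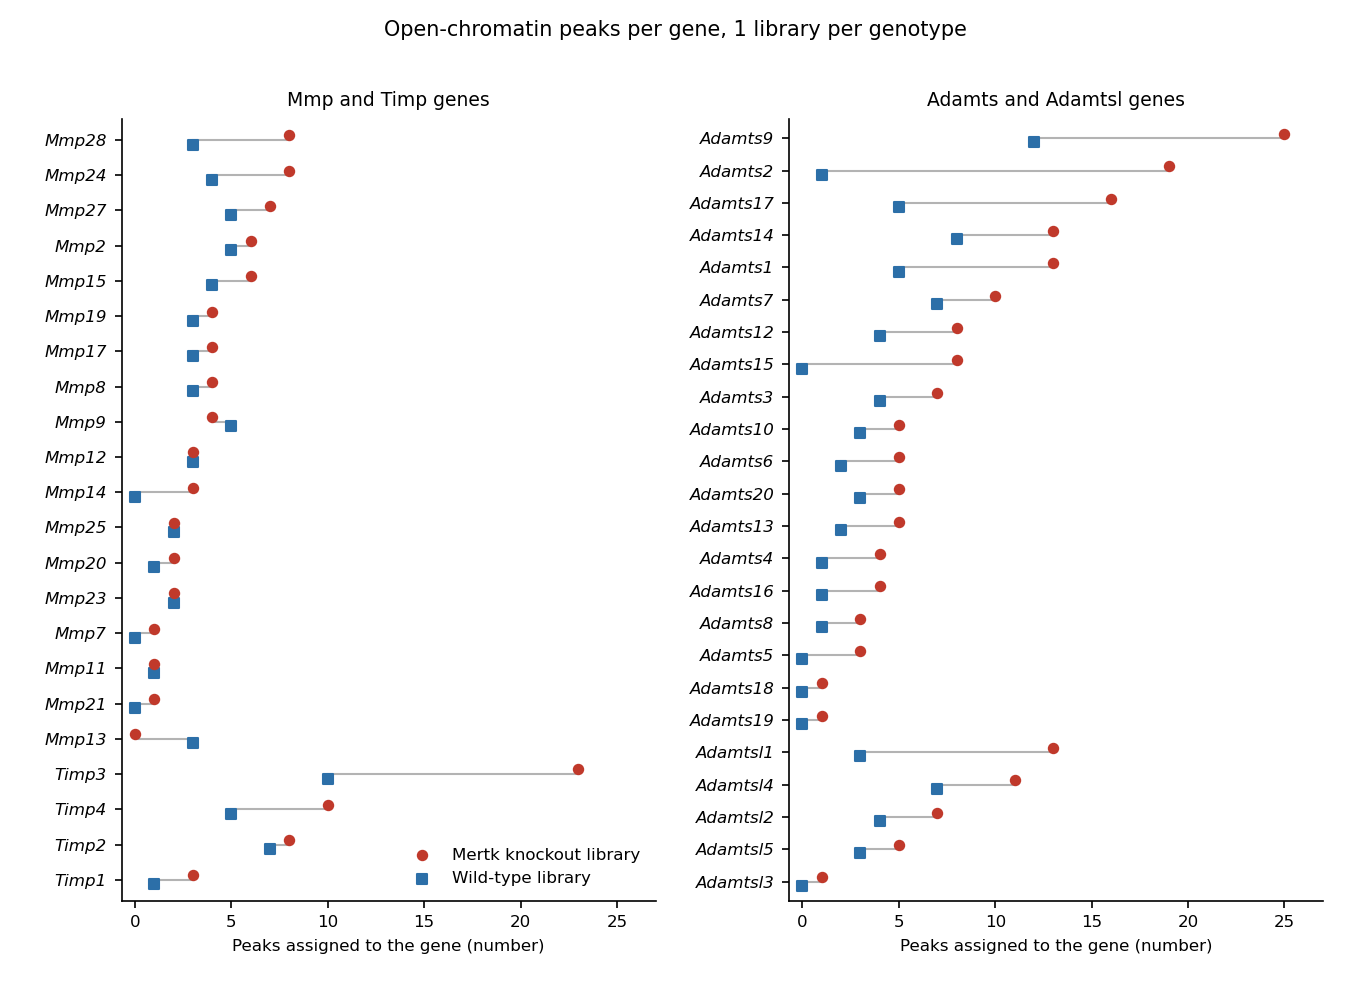
Number of called ATAC peaks (horizontal axis) assigned to each of the 46 members in the Mertk knockout and the wild-type library, 1 library each and no error bar, with members grouped by family. The Adamts genes have more peaks in the knockout library in 19 of 19 cases, whereas most Mmp genes differ by a few peaks.

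By family, the libraries differed more in the Adamts genes than in the Mmp genes. The 19 Adamts genes held 155 peaks over 135 kb in the knockout library, against 59 peaks over 51.0 kb in the wild-type library, and each of the 19 had more peaks in the knockout library. The 15 measured Adamts genes had a median log2 ratio of 0.56 (quartiles 0.28 and 0.84), and 15 of 15 lay above the median gene. With peaks assigned to no other gene, the Adamts median was 0.30 over 11 measured genes and Adamts14 lay at -0.01. When only peaks in the gene body or within 20 kb counted, Adamts3 lay at -0.37 and Adamts10 at -0.0043, so not every Adamts gene was above the median gene under each setting. In contrast, the 18 Mmp genes held 66 and 47 peaks (58.0 and 40.2 kb) in the knockout and the wild-type library. Their median over 10 measured genes was -0.03 (0.37 without centring), with 3 of 10 above the median gene and 0 past the size rule (against 14.4% of all genes measured). The 5 Adamtsl genes had 37 and 17 peaks with a median of 0.18 over 4 measured genes, and the 4 Timp genes had 44 and 23 peaks with a median of 0.44 over 3. With no minimum, medians were 0.58 over all 19 Adamts genes and -0.01 over all 18 Mmp genes. The difference between these families was not tested.

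**Figure D2:**
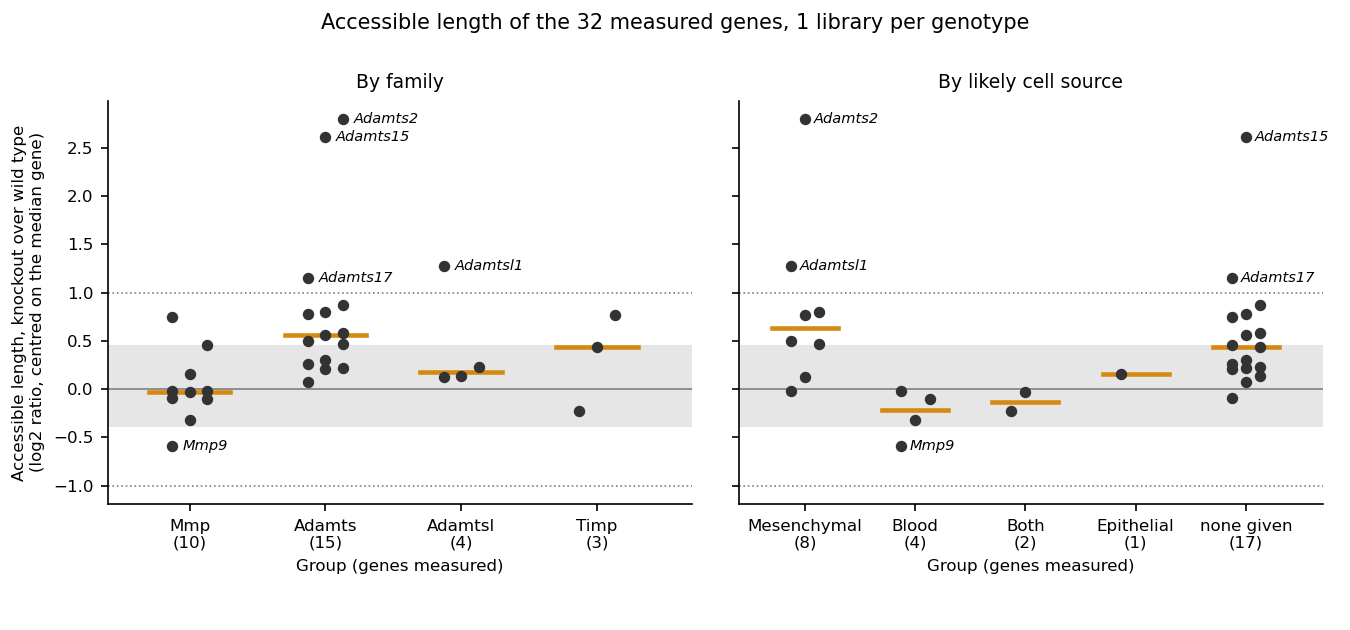
Centred log2 ratio of accessible length, knockout over wild type, for the measured members by family and by likely cell source, with 1 point per gene, a bar at each group's median, a grey band for the quartiles of all genes measured, and dotted lines at the size rule of 1 and -1. The Adamts points lie above 0, with a median of 0.56, and the Mmp points lie around 0, with a median of -0.03, which is 0.37 without centring.

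The 5 promoters whose windows lay under a peak in 1 library alone are shown here, beside 3 from the gene cluster of Mmp13. They are RefSeq windows of GRCm38.p6 (the assembly behind mm10), from 250 bases before to 50 bases after a start site. Mmp13 is the member whose promoter peak was called in wild type alone. Mmp3, Mmp8 and Mmp27, which are not the genes next to Mmp13, show promoters of the same gene cluster. They had no peak in either library (Mmp3) or one in both (Mmp8, Mmp27). The windows of Adamts2, Adamts13, Mmp15 and Timp4 lay under a knockout peak and under no wild-type peak. Capitals mark matches, on either strand, to AP-1 (TGANTCA), Runx (TGTGGTT), Ets/PU.1 (GAGGAAGT) or Tead (CATTCCA) motifs, with no overlap between matches. The windows on the plus strand are chr9:7272264-7272563 for Mmp13, chr9:7445572-7445871 for Mmp3, chr9:7558179-7558478 for Mmp8, chr9:7571146-7571445 for Mmp27, chr11:50601835-50602134 for Adamts2, chr2:26973166-26973465 for Adamts13 and chr8:95352046-95352345 for Mmp15, and the window of Timp4, chr6:115252156-115252455, is on the minus strand.
Mmp13: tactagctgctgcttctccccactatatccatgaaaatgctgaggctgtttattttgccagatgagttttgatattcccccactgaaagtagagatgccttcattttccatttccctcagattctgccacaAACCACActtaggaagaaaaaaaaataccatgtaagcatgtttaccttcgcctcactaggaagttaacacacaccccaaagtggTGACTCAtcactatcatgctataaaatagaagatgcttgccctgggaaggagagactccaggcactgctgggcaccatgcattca
Mmp3: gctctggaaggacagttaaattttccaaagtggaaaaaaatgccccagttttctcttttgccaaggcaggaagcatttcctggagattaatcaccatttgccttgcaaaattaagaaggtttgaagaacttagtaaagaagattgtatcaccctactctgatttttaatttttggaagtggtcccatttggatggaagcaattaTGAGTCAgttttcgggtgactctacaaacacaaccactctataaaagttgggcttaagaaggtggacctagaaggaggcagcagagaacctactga
Mmp8: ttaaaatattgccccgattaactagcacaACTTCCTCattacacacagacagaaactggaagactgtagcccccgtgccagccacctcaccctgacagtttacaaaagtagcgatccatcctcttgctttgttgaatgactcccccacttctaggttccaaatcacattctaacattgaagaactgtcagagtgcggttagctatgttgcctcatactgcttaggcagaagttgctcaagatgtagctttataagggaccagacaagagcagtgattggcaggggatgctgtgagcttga
Mmp27: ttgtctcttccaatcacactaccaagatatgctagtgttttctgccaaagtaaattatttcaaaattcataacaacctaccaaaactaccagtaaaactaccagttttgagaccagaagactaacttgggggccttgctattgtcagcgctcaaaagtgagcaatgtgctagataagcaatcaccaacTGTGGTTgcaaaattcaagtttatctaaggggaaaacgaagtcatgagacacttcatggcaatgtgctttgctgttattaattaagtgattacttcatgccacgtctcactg
Adamts2: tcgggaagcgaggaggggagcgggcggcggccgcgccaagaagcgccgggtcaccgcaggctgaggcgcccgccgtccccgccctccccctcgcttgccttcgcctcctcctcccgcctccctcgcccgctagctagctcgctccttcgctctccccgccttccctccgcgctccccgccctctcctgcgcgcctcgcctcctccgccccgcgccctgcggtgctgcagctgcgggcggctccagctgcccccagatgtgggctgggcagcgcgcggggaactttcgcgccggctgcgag
Adamts13: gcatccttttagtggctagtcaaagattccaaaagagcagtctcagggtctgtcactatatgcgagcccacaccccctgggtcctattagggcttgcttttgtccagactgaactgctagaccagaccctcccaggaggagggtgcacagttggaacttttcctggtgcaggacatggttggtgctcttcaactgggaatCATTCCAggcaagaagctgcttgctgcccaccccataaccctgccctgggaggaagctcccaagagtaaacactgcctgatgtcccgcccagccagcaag
Mmp15: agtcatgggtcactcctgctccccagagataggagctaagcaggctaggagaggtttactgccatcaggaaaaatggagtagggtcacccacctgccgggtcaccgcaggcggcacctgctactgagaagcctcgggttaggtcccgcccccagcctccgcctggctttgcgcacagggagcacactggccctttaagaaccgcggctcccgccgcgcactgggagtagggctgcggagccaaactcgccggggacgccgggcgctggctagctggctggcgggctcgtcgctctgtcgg
Timp4: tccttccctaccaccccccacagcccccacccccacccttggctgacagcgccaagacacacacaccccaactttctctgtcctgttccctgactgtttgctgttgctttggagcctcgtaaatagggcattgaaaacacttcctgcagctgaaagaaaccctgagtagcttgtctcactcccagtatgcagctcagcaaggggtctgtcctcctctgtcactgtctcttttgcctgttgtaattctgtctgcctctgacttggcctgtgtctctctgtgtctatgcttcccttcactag

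In Mmp13 the AP-1 match spans bases -35 to -29 from the start site and the Runx match, in reverse, bases -119 to -113. Mmp3 has an AP-1 match at -46 to -40, Mmp8 an Ets/PU.1 match in reverse at -221 to -214, Mmp27 a Runx match at -62 to -56, and Adamts13 a Tead match at -50 to -44, while the Adamts2, Mmp15 and Timp4 windows hold none of these letters and have GC contents of 77.3%, 66.0% and 53.3%. RefSeq windows were at hand for 32 of the 46 members and for 4 of the genes without peaks, 39 windows in all. AP-1 letters stood in 8 of these 39 windows (20.5%), against 7.81% of 32851 windows of all genes. All 8 belong to the Mmp cluster on chromosome 9: Mmp1a, Mmp1b, Mmp3, Mmp7, Mmp10, Mmp12, Mmp13 and Mmp20. Of these 8 windows, 0 lay under a knockout peak and 1, that of Mmp13, under a wild-type peak, whereas 35.3% and 27.8% of all windows with AP-1 letters lay under a knockout and a wild-type peak. Runx letters stood in 3 of 39 windows (5.27% of all), Ets/PU.1 letters in 3 (3.20% of all), Tead letters in 1 (4.29% of all), and an NF-kB motif in 0 (0.411% of all).

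Base composition separated the cluster from the other promoters. The 12 windows of the chromosome 9 Mmp genes had a median GC content of 41.7% (37.7% to 52.0%), and 2 of them lay under a knockout and 3 under a wild-type peak. The other 9 Mmp windows had a median of 63.3%, with 7 under a knockout and 6 under a wild-type peak. Among the 10 Adamts windows the median was 68.0%, and 9 lay under a knockout and 7 under a wild-type peak. The 4 Adamtsl windows had a median of 70.0%, and the 4 Timp windows 61.0%, against 52.7% over all windows.

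By the authors' peak types, a promoter peak was called in both libraries for 25 of the 37 members that had one. In the knockout library alone it was called for 11 (29.7%, against 15.4% of all genes with a promoter peak): Adamts2, Adamts4, Adamts5, Adamts13, Adamts15, Adamtsl1, Mmp2, Mmp12, Mmp14, Mmp15 and Timp4. In the wild-type library alone it was called for Mmp13 (2.70%, against 3.17%). When any peak over a RefSeq window counted in place of the peak types, the knockout alone had 4 of the 25 members with such a peak (16%), against 15.4% of 14056 genes, so the share of members was then near that of all genes. Of the 11 members, 5 have no such window, namely Adamts4, Adamts5, Adamts15, Adamtsl1 and Mmp2. The 11 cases are of different kinds. The Mmp12 peak overlaps a wild-type peak that the annotation types as distal. For Adamts13 and Mmp15 the nearest wild-type peak begins 142 and 60 bp away. At Mmp14, Adamts4 and Mmp2 the gap was 2.90, 3.70 and 3.91 kb. For Timp4, Adamts15, Adamtsl1, Adamts5 and Adamts2 no wild-type peak was called within 14.7, 17.1, 73.6, 96.0 and 167 kb of the promoter peak. Without Mmp12, 10 members had a knockout promoter peak that no wild-type peak overlaps. The Adamts4 and Adamtsl1 promoter peaks lie at start sites inside the RefSeq gene.

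The collagenases, which cut fibrillar collagen, had few peaks, and 1 of them had peaks in the wild-type library alone. Mmp13 (chromosome 9, 7272514 to 7283333) had 0 peaks in the knockout library, against 3 peaks over 2.66 kb in the wild-type library. One of these covers the start site (7271983 to 7272906), and the others lie upstream (7250418 to 7251298) and downstream (7291870 to 7292719). The nearest knockout peak was 49.9 kb from the promoter peak. At a mean under 2 kb, Mmp13 falls below the minimum, so it has no call. Mmp8, the collagenase of neutrophils, had 4 knockout peaks (3.41 kb) and 3 wild-type peaks (2.62 kb), a log2 ratio of -0.11, and its promoter peak was called in both libraries. Mmp1a and Mmp1b had no peak.

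The gelatinases, which cut denatured collagen and basement membrane collagen, had 10 peaks in each library. Mmp9, stored in neutrophil granules and made by macrophages, had 4 knockout peaks over 3.49 kb and 5 wild-type peaks over 4.14 kb. Its log2 ratio of -0.59 was the lowest of the measured members, and each of the 4 knockout peaks overlapped a wild-type peak. Distances for Mmp9 are counted in the deposited annotation from a start site inside the RefSeq gene, and no peak there is typed as promoter. Mmp2, made by stellate cells and fibroblasts, had 6 knockout peaks (5.68 kb) and 5 wild-type peaks (4.16 kb), a ratio of -0.02. The promoter peak of Mmp2 was called in the knockout library alone, as were those of Mmp12, Mmp14 and Mmp15 among the Mmp genes.

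Among the stromelysins and matrilysin, Mmp11 (stromelysin-3) had 1 promoter peak in each library, while Mmp3 and Mmp10 had none. Mmp7, made by epithelia, had 1 distal peak in the knockout library alone. This peak lies inside Mmp20 and is also assigned to Mmp20. Mmp12, the macrophage elastase, had 3 peaks in each library, all of them overlapping, with a log2 ratio of -0.32. The membrane-bound enzymes held 23 knockout and 13 wild-type peaks, with a median of 0.15. Mmp14, which activates pro-Mmp2 at the cell surface together with Timp2, had 3 knockout peaks over 2.41 kb and 0 wild-type peaks. Mmp15 had 6 and 4 peaks (0.15) and Mmp24 8 and 4 (0.46) in the knockout and the wild-type library. Mmp17 had 4 and 3 peaks (-0.09), and Mmp25 (leukolysin, of neutrophils) had 2 in each library, a promoter peak included. Of the 3 measured membrane-bound enzymes, Mmp15, Mmp17 and Mmp24, 0 passed the size rule (against 14.4% of all genes measured), and with peaks assigned to no other gene Mmp24 turned to -0.33 and Mmp15 to -0.06. Mmp14 and Mmp25 were below the minimum length and have no call.

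Of the remaining Mmp genes, Mmp28 (epilysin) had 8 knockout and 3 wild-type peaks and, at 0.75, the highest ratio of the measured Mmp genes. Mmp27 had 7 and 5 peaks (-0.02) and Mmp19 4 and 3 (-0.03) in the knockout and the wild-type library. Mmp23 had 2 promoter peaks in each library. The tooth enzyme Mmp20 had 2 knockout peaks, 1 of them the peak also counted for Mmp7, and 1 wild-type peak. Mmp21 had 1 distal knockout peak.

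On chromosome 9, 10 Mmp genes lie side by side, with Mmp13 at one end of the cluster and Mmp7 at the other. In a window of 477 kb over this cluster, with 25 kb on each side (7247514 to 7724585), the knockout library had 16 peaks over 14.1 kb and the wild-type library 15 peaks over 13.2 kb. In each library 12 of these peaks overlapped a peak of the other. The 3 wild-type peaks with no knockout counterpart were the 3 assigned to Mmp13. The 4 knockout peaks with no wild-type counterpart lay by Mmp8 (1), by Mmp27 (2) and inside Mmp20 (1). Over Mmp1b, Mmp3, Mmp1a and Mmp10, in the middle of the cluster, no peak was called in either library. The 3 peaks around Mmp12 next to Mmp13 were found in both libraries, so the absence of knockout peaks was seen at Mmp13 and not at its nearest neighbour.

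**Figure D3:**
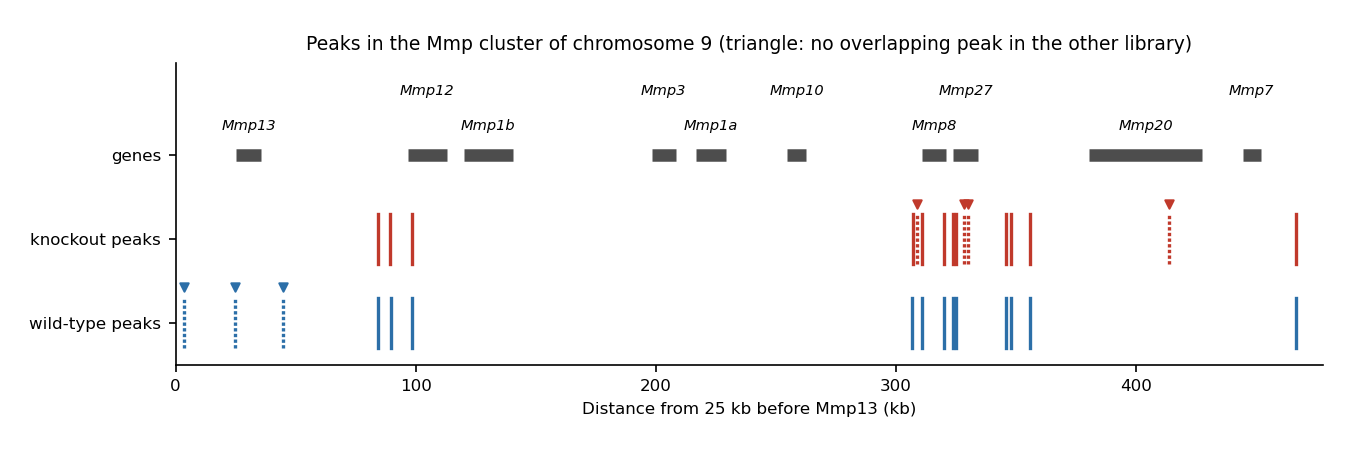
Map of the Mmp gene cluster on chromosome 9 with called peaks of the knockout library in the upper row and of the wild-type library in the lower row, and genes as bars, against the distance in kb from 25 kb before Mmp13. Solid lines are peaks found in both libraries, and dotted lines under a triangle are peaks of 1 library. The 3 wild-type peaks under a triangle are those assigned to Mmp13.

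The proteoglycan-cleaving Adamts genes held 61 knockout and 22 wild-type peaks, with a median log2 ratio of 0.80 over 5 measured genes. Adamts15 (chromosome 9, 30899155 to 30922452) had 8 peaks over 7.05 kb in the knockout library, with a promoter peak, and 0 in the wild-type library. Its call as higher rests on the added 1 kb, because it is listed at 0 in the wild-type library. When only peaks in the gene body or within 20 kb counted, Adamts15 fell below the minimum length and had no call. Adamts1, which cuts versican and aggrecan, had 13 knockout peaks (11.2 kb) and 5 wild-type peaks (4.33 kb), a ratio of 0.80, with 2 promoter peaks in each library. The 5 wild-type peaks of Adamts1 all overlapped knockout peaks, and 8 further peaks were called in the knockout library alone. Adamts9 had the most peaks of any member, 25 over 22.4 kb in the knockout library and 12 over 10.9 kb in the wild-type library (0.58), though 23 and 12 of them are also assigned to another gene. Adamts4, a cartilage aggrecanase, had 4 knockout peaks (3.36 kb) and 1 wild-type peak (0.812 kb), a ratio of 0.87. Adamts5, the main aggrecanase of mouse cartilage, had 3 knockout peaks over 2.73 kb and 0 wild-type peaks. Adamts20 had 5 and 3 peaks (0.26) and Adamts8 3 and 1 in the knockout and the wild-type library.

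The procollagen N-propeptidases, which remove the amino-terminal propeptide of fibrillar procollagens, held 39 knockout and 13 wild-type peaks. Adamts2 (chromosome 11, 50602085 to 50807573), which acts on procollagens I and III, accounted for most of that gap. It had 19 peaks over 16.4 kb in the knockout library, against 1 peak over 0.904 kb in the wild-type library. The log2 ratio of 2.80 was the highest of the measured members. In the knockout library 17 of the 19 peaks lay in the gene body, and the wild-type peak, also in the gene body, was the 1 that was shared. The annotation also assigns 17 of these 19 peaks to predicted genes (Gm symbols), and without such peaks Adamts2 fell below the minimum length and had no call. Adamts14 had 13 and 8 peaks (0.21) and Adamts3, which also helps to activate Vegfc, had 7 and 4 (0.31, or -0.37 with peaks in the gene body or within 20 kb) in the knockout and the wild-type library.

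The other Adamts genes held 55 knockout and 24 wild-type peaks, with a median of 0.50 over 7 measured genes. Adamts17 (chromosome 7, 66839699 to 67153171), a relative of the fibrillin-associated Adamts10, had 16 knockout peaks over 13.9 kb and 5 wild-type peaks over 4.07 kb. Its ratio of 1.16 passed the size rule, with a promoter peak in both libraries. With peaks assigned to no other gene it was 0.59 and did not pass. Adamts13, which cuts von Willebrand factor and is made in the liver by stellate cells, had 5 knockout peaks (4.11 kb) and 2 wild-type peaks (1.81 kb), a ratio of 0.47. Adamts7 and Adamts12, which degrade cartilage oligomeric matrix protein, had 10 and 7 peaks (0.08) and 8 and 4 peaks (0.50) in the knockout and the wild-type library. The 7 wild-type peaks of Adamts7 were all shared, and its ratio was the lowest of the measured Adamts genes. Adamts6, Adamts10 and Adamts16 lay at 0.56, 0.22 and 0.78, and Adamts18 and Adamts19 had 1 distal knockout peak each.

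Among the Adamts-like proteins, Adamtsl1 (chromosome 4, 85513852 to 86428390) had 13 knockout peaks over 10.7 kb and 3 wild-type peaks over 2.68 kb. Its ratio of 1.28 passed the size rule, and 1 peak was shared. Adamtsl4 had 11 and 7 peaks (0.22), Adamtsl2, which binds fibrillin and the latent form of Tgfb, 7 and 4 (0.12), and Adamtsl5 5 and 3 (0.13) in the knockout and the wild-type library. Adamtsl3 had 1 distal knockout peak.

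**Figure D4:**
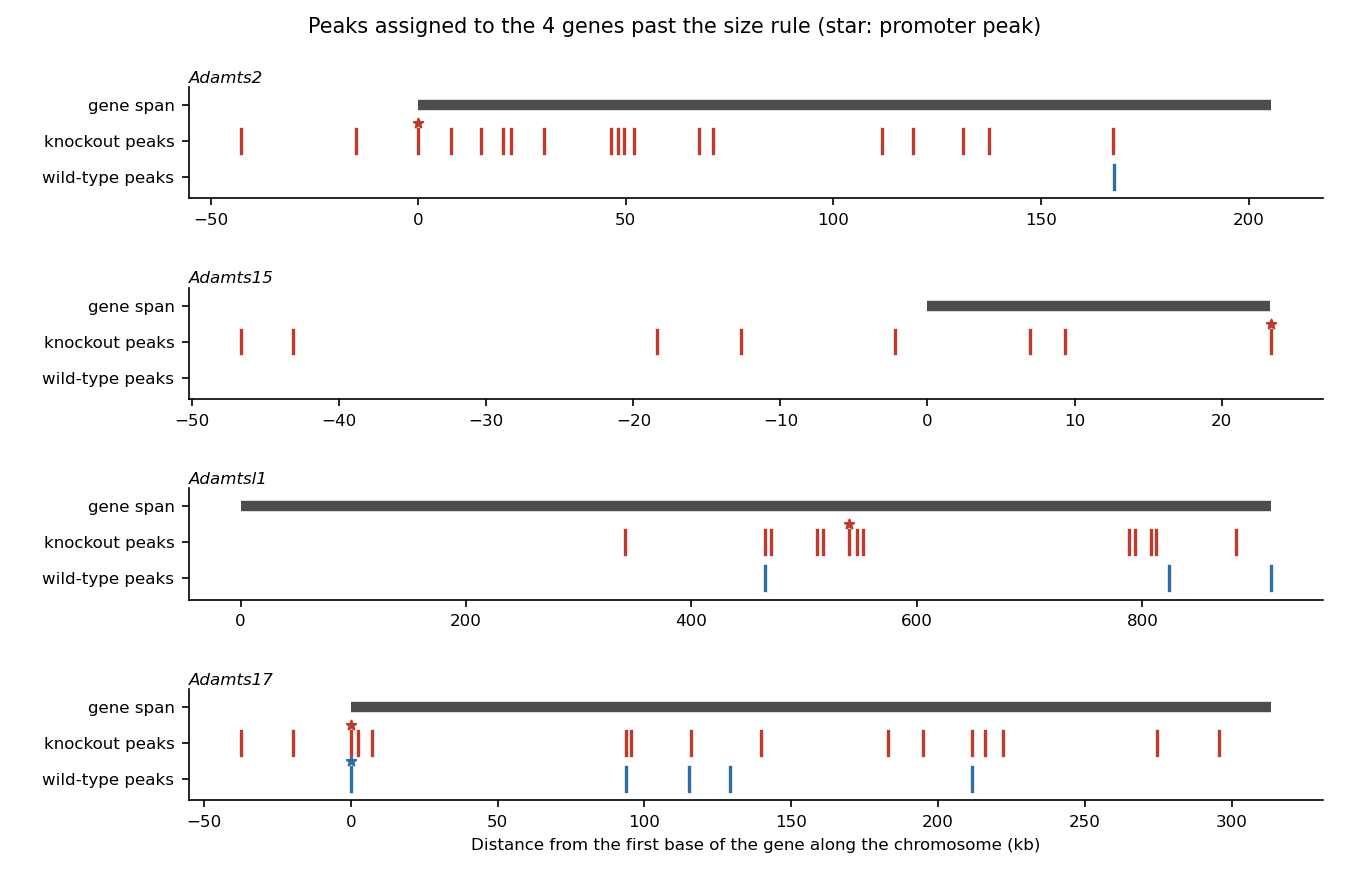
Positions of the peaks assigned to Adamts2, Adamts15, Adamtsl1 and Adamts17, the 4 members past the size rule, as the distance in kb from the first base of the gene along the chromosome, with knockout peaks above wild-type peaks and a star over promoter peaks. Adamts15 is read toward the left, so its promoter peak stands at the right end. The knockout peaks of Adamts2 spread over the gene body, where 1 wild-type peak was called.

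The inhibitors followed no single pattern. Timp3, which binds to matrix and also inhibits Adam17 and aggrecanases, had 23 knockout peaks over 20.6 kb and 10 wild-type peaks over 8.66 kb, a ratio of 0.77, which turned to -0.17 when only peaks in the gene body or within 20 kb counted. All 23 and all 10 are also assigned to Syn3, the gene in whose intron Timp3 lies, so the Timp3 and Syn3 values rest on the same peaks. Timp4 had 10 knockout peaks (8.67 kb) and 5 wild-type peaks (4.42 kb), a ratio of 0.44, with both of its promoter peaks in the knockout library. With peaks assigned to no other gene it turned to -0.36. Timp2, an inhibitor that also helps Mmp14 to activate pro-Mmp2, had 8 and 7 peaks in the knockout and the wild-type library and a ratio of -0.23, and all 7 wild-type peaks were shared. Timp1, which is strongly expressed in injured liver, had 3 knockout peaks and 1 wild-type peak, a promoter peak in both libraries among them, and all of them are also assigned to its host gene Syn1. Leaving out peaks with another gene leaves Timp2 and Timp4 measured, with a median of -0.37 in place of 0.44.

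Grouped by the cell in which each gene is best known, mesenchymal and blood members stood on different sides of the median gene, although without centring both medians were above 0. Of the 14 listed mesenchymal genes, 12 had a peak, with 101 knockout peaks over 87.6 kb and 37 wild-type peaks over 32.1 kb. The 8 measured mesenchymal genes had a median log2 ratio of 0.63, with 7 of 8 above the median gene. By the size rule 2 of them were higher (Adamts2 and Adamtsl1), against 10.3% of all genes measured. Adamts2, with 0.904 kb in the wild-type library, reached the minimum length through its knockout peaks. The 5 blood genes (Mmp8, Mmp9, Mmp12, Mmp25 and Mmp27) had 20 knockout peaks over 17.4 kb and 18 wild-type peaks over 15.5 kb. Their 4 measured genes had a median of -0.21, with 0 of 4 above the median gene and 0 lower by the size rule (against 4.08% of all genes measured). The 5 genes made by both kinds of cell (Mmp13, Mmp14, Mmp19, Timp1 and Timp2) had 18 and 14 peaks and a median of -0.13 over 2 measured genes, while the epithelial Mmp7 and Mmp15 had 7 and 4. The 22 members with no source given had 156 knockout and 73 wild-type peaks and a median of 0.44 over 17 measured genes. With no minimum, medians were 0.56 over 12 mesenchymal genes and -0.30 over 5 blood genes. With peaks assigned to no other gene, the mesenchymal median was 0.27 over 5 measured genes. Without centring, the mesenchymal, blood and both-cell medians were 1.03, 0.18 and 0.26. The source lists overlap with the families. All 5 blood genes are Mmp genes, and Mmp2, at -0.02, is the only measured Mmp gene of the mesenchymal list. The mesenchymal Mmp11 and Mmp23, under the minimum, had as many knockout as wild-type peaks. Likely source and family thus cannot be told apart in these values.

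Cell type markers differed between the libraries as well, and those higher in the knockout library were not of mesenchymal cells alone. All listed hepatocyte genes except Ttr (-0.69) and Tat (0.92) were higher by the size rule (against 10.3% of all genes measured). The highest was Cps1 at 3.11, which had 0 wild-type peaks and so reached the minimum through the knockout library. The 13 of 14 stellate and fibroblast markers with a peak summed to 70.7 kb in the knockout library and 16.7 kb in the wild-type library, with a median of 1.51 over 8 measured genes and 6 of them higher (against 10.3% of all genes measured). Of these markers Col3a1, Lum, Des, Lrat and Rgs5 had no wild-type peak, and among them Des alone reached the minimum length. Col3a1 and Lum had 1 knockout peak each, and Lrat had 2. Col1a1, Col1a2, Pdgfrb and Reln had 1 wild-type peak each and, like Des, reached the minimum through the knockout library. The count of higher markers thus describes the measured markers and not the list. The measured markers Acta2 and Pdgfra were neither higher nor lower, at -0.16 and 0.06. Acta2 and Pdgfra had 6 and 8 knockout peaks, against 5 and 6 wild-type peaks. Neutrophil markers summed to 31.5 and 32.3 kb (median -0.66 over 5 genes), and monocyte and macrophage markers to 66.3 and 75.9 kb (median -0.63 over 9 genes, 4 of them lower, against 4.08% of all genes measured), in the knockout and the wild-type library. The mesenchymal members thus had a smaller median than stellate markers, and the blood members one nearer to 0 than neutrophil and macrophage markers. Cholangiocyte markers had 32 and 10 peaks (median 1.36), endothelial markers 126 and 68 (0.48), and Kupffer cell markers 37 and 46 (-0.65). Markers of T and NK cells had 16 and 23 peaks (-0.65), of B cells 7 and 9 (-0.18), and of mesothelium 12 and 8 (0.13). The part of cell numbers in the member values was not tested.

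The overlap of peaks differed between the families, most of all among knockout peaks. Of 300 distinct knockout peaks of the members, 125 (41.7%, 95% interval 36.0% to 47.5%) overlapped a wild-type peak, against 49.5% over all genes. In the other direction 123 of 145 wild-type peaks (84.8%, 77.9% to 90.2%) overlapped a knockout peak, against 72.5% over all genes. Adamts genes shared 49 of 155 knockout peaks (31.6%, 24.4% to 39.6%) and 49 of 59 wild-type peaks (83.1%). For Mmp genes the shares were 40 of 64 knockout peaks (62.5%, 49.5% to 74.3%) and 39 of 46 wild-type peaks (84.8%). The blood genes shared 16 of 19 knockout peaks (84.2%, 60.4% to 96.6%) and 16 of 17 wild-type peaks (94.1%), and the mesenchymal genes 33 of 101 knockout peaks (32.7%, 23.7% to 42.7%) and 32 of 37 wild-type peaks (86.5%). Peaks within a gene are neighbours and not independent, and the intervals cover counting error alone. A knockout share is also limited by the number of wild-type peaks, so its differences between groups in part repeat those in peak counts. Most wild-type peaks of the members thus had a knockout counterpart, and the mesenchymal and Adamts genes had further peaks in the knockout library. Promoter peaks of the members were shared at 72.5% and 96.6%, and distal ones at 36.9% and 81.9%, of knockout and wild-type peaks. Over all genes the shares were 78.9% and 93.5% for promoter peaks and 44.3% and 67.7% for distal peaks.

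**Figure D5:**
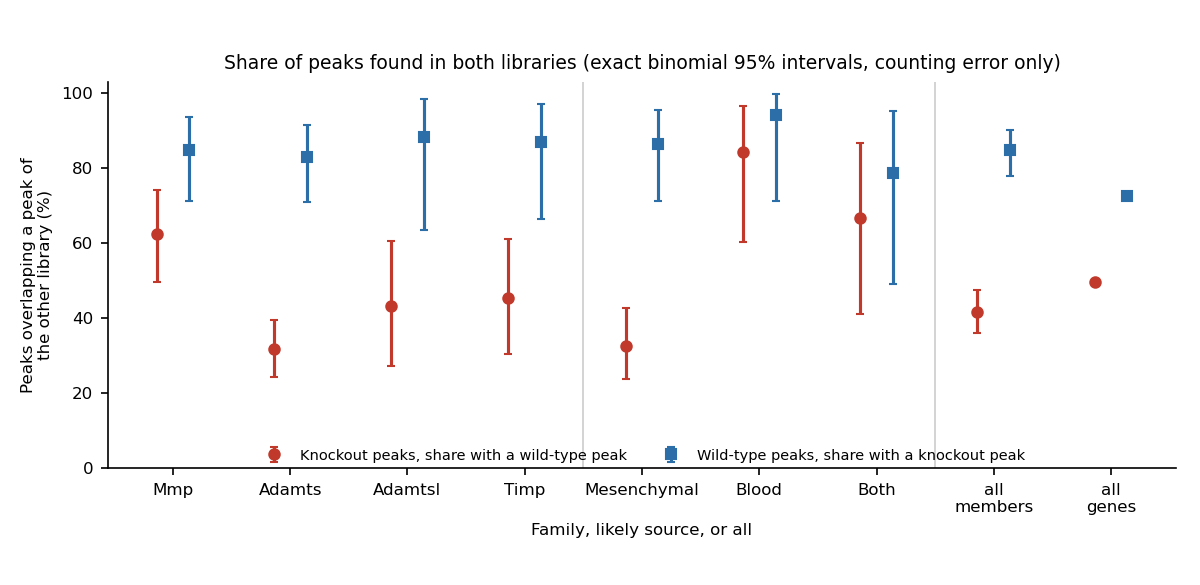
Percentage of peaks that share 1 bp or more with a peak called in the other genotype, for knockout peaks and wild-type peaks, over all genes, all members and groups of members, with exact 95% binomial intervals that cover counting error alone. Among knockout peaks the Adamts genes are at 31.6% and the blood genes at 84.2%, and the wild-type peaks of these groups at 83.1% and 94.1%.

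Peaks seen in 1 library were about as wide as shared ones. The median width of the members' knockout peaks was 885 bp for those called in the knockout library alone and 881 bp for shared ones, and that of the wild-type peaks 859 and 879 bp. Inside the gene lay 182 of 302 knockout peaks and 88 of 146 wild-type peaks, 60.3% in both libraries. Adamts genes are long, with a median of 114 kb, against 13.2 kb for Mmp genes. Per 100 kb of gene, Adamts genes had 4.33 knockout and 1.63 wild-type peaks in the gene body, and Mmp genes 13.0 and 8.59. Long genes as a class lay to the knockout side, with a median log2 ratio of 0.14 over 2062 measured genes of at least 100 kb and 15.2% of them higher, against -0.02 and 9.08% over 10750 shorter genes. The 8 measured Adamts genes of at least 100 kb had a median of 0.57, and the 7 shorter ones a median of 0.47, all 7 above the median gene. Among the shorter ones Adamts15 had no wild-type peak, and Adamts14 and Adamts10 lay at -0.01 and -0.0043 in other settings. The part of gene length in the Adamts values was not tested.

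The genes around these enzymes were examined as well. Of 13 measured activators, inhibitors and clearance receptors, 2 were higher and 0 lower, against 10.3% and 4.08% of all genes measured, with a median of 0.14. Pcsk5 and Pcsk6, proprotein convertases that cut the precursors of many secreted proteins, had 19 and 17 knockout peaks, against 2 and 0 wild-type peaks. Reck, a membrane inhibitor of Mmps, had 8 and 5 peaks (0.14), Lrp1, which clears proteases, 17 and 15 (-0.10), and Plg, the precursor of plasmin, 12 and 5 (0.73), in the knockout and the wild-type library. For Spock2 and Thbs1 the promoter peak was called in the knockout alone, as it was for Pcsk6.

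Of 13 measured related metalloproteinases, 2 were higher and 3 lower, against 10.3% and 4.08% of all genes measured, with a median of -0.05. Adam12, made by activated stellate cells, had 18 knockout and 4 wild-type peaks (1.52), and Mep1b, a meprin subunit, 14 and 1 (2.36). Adam10, a sheddase of many cell types, had 4 and 10 peaks (-1.42), Adamdec1, a macrophage and dendritic cell gene, 2 and 4 (-1.05), and Tll2 3 and 6 (-1.17), in the knockout and the wild-type library. Of the promoter peaks, that of Adamdec1 was called in wild type alone and those of Adam12, Mep1b and Tll1 in the knockout alone.

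Of 15 measured substrates, 5 were higher and 0 lower, against 10.3% and 4.08% of all genes measured, with a median of 0.35. Col1a1 and Col1a2, the chains of type I collagen, had 9 and 12 knockout peaks, against 1 wild-type peak each (1.85 and 2.17). Fn1 (fibronectin), Fbn2 and Sdc4 lay at 1.58, 1.26 and 1.07. These 5 had 1 wild-type peak each and reached the minimum length through the knockout library. Vcan, the versican that Adamts1, Adamts5 and Adamts9 cut, had 12 knockout and 11 wild-type peaks (-0.20) and, like Bcan, its promoter peak in wild type alone. Col1a2, Vwf, Fbn1 and Lox had theirs in the knockout alone. Set beside the members, 23 measured collagen genes had a median of 0.60, with 7 higher and 1 lower, and 36 measured integrin and laminin genes a median of -0.21, with 6 higher and 5 lower. The shares over all genes measured, 10.3% higher and 4.08% lower, stand beside these counts too.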

How the data were processed

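Called ATAC peaks were compared between the Mertk knockout and the wild-type library, 1 each. Per the file headers, peaks come from cellranger-arc 2.0.2 and mm10, with 1 run per library, and the authors deposited peak positions with no height or score, so peak coordinates are theirs. The caller's settings are not stated there or in the labels. Their annotation assigns a peak to genes as promoter or distal, and 1 peak can have several genes. Raw counts per barcode, as deposited, served for depth alone. The members, the lists of roles, sources, markers and pathways, and the naming rule were chosen with earlier results of these data known. All members could be named. Genes outside the family were named where they belong to a pathway list and passed the size rule or had a promoter peak in 1 library alone. A few others are named as well, after their values were seen: Reck, Lrp1, Plg, Alb, Ttr, Tat and Cps1. So are the stellate and fibroblast markers Col3a1, Lum, Des, Lrat, Rgs5, Acta2, Pdgfra, Pdgfrb and Reln. The accessible length, the centring and the size rule were computed over all genes, as defined in the text, and gene spans and promoter windows come from RefSeq GRCm38.p6. With 1 library per genotype no test, p-value or leave-one-out analysis was possible. The calculation was tested on simulated data, and overlaps were checked against bedtools 2.31.1. The work used scipy 1.17.1, pandas 2.3.3, matplotlib 3.10.9 and numpy 2.4.6 under Python 3.11.15. No expression matrix was used here.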

Additional observations from a re-analysis of the deposited data

How the results depend on the processing

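No paired analysis was possible because each genotype had 1 library, and for the same reason no library could be left out. Against 4 higher members, a size rule of 0.58 gave 10 (20.6% of all genes), no centring gave 9 (19.6%), and peaks assigned to no other gene gave 2 (10.4%). Against 0 lower members, the 0.58 rule gave 1 (Mmp9; 15.4% of all genes) and no minimum length gave 1 (Mmp13; 5.24%). Without centring, medians were 0.67 for all members, 0.37 for Mmp, 0.96 for Adamts, 0.57 for Adamtsl, 0.83 for Timp, 1.03 for mesenchymal, 0.18 for blood and 0.26 for both-cell genes, by construction 0.39 above the centred ones. With peaks assigned to no other gene, medians were 0.30 for Adamts, -0.37 for Timp and 0.27 for mesenchymal genes. Timp was at 0.17 with distal peaks alone and at -0.17 with peaks in the gene body or within 20 kb. The cause of these shifts was not tested. Promoter calls in the knockout library alone numbered 4 in place of 11 when any peak over a RefSeq window counted, an alternative added after the data were seen, in which fewer genes have a window and the share was 16% of members, against 15.4% of all genes. Of 246 single-gene values over 8 settings, 237 kept their call, 8 newly passed the size rule and 1 no longer did (Adamts17, 0.59, with peaks assigned to no other gene), and Adamts2 then fell below the minimum length, as did Adamts15 with peaks in the gene body or within 20 kb. In 22 of these values, all of genes with no call, the sign was the other one, 7 of them without centring. Few peaks per gene limit every single-gene value.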
